A study of Homo sapiens with 4 samples.

Results

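The genes described here are 9 genes of MHC class II antigen presentation: the antigen-presenting chains HLA-DRA, HLA-DRB1, HLA-DPA1, HLA-DPB1 and HLA-DQB1, the peptide editor chains HLA-DMA and HLA-DMB, the invariant chain CD74, and CIITA, the class II transactivator. They were taken by gene symbol from a table of RefSeq transcripts, and the values of a gene's transcripts were summed in each library. All 9 genes are listed, 8 have a value, and 4 (CD74, HLA-DQB1, HLA-DMA and CIITA) passed the filter on low values and were tested, against 16490 genes with a value and 12142 tested in the whole table. RNA-seq was done on MV4-11, a human acute myeloid leukemia cell line, in 2 libraries of control cells carrying the non-targeting hairpin sh-NC (CEBPG presence) and 2 libraries of cells carrying sh-CEBPG#3, a hairpin against the transcription factor CEBPG (CEBPG knockdown). All cells carried a lentiviral hairpin and were selected with puromycin. A single CEBPG hairpin was sequenced, so a response to this hairpin cannot be told apart from a response to the loss of CEBPG, and whether replicates were infected separately is not given in the sources used here. P-values therefore measure the spread between these libraries, which may be technical.

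MHC class II molecules are pairs of an alpha and a beta chain that carry peptides from the endosome to the cell surface, where CD4+ T cells read them. In the endoplasmic reticulum the new pairs assemble on the invariant chain CD74, which blocks the peptide groove and directs the complex to the endosome. There cathepsins degrade CD74, and HLA-DM exchanges its last fragment for a peptide. CIITA does not bind DNA itself. It is recruited by the RFX complex, CREB1 and NF-Y, which sit on the X and Y boxes of class II promoters, and interferon gamma switches CIITA on through JAK kinases and IRF1.

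In sh-NC cells CEBPG stood at 30.4 and 33.6 FPKM, and in sh-CEBPG#3 cells at 19.2 and 17.1 FPKM. FPKM are fragment counts scaled to the length of the transcript and the size of the library, so levels can be compared between genes. Both sh-CEBPG#3 libraries lay below both controls (log2 fold change -0.78, standard error 0.09, adjusted p = 8.88e-05, limma), and 56.8% of the control level remained. The libraries correlated with Pearson's r = 0.993 within sh-NC, 0.994 within sh-CEBPG#3 and 0.962 to 0.964 between the groups, over genes of the same libraries. The myeloid markers of MV4-11 cells were present (FLT3, a receptor kinase of myeloid precursors, 67.6 and 75.0 FPKM in sh-NC). No T cell or erythroid marker of the lists used here is listed. The summed level of the B cell markers was 3.11 and 3.31 FPKM in sh-NC and 2.87 and 3.04 FPKM in sh-CEBPG#3. The summed level of the dendritic cell markers was 13.3 and 13.6 FPKM in sh-NC and 23.8 and 20.9 FPKM in sh-CEBPG#3. CD209 (10.3 and 9.85 FPKM in sh-CEBPG#3) and BATF3 held most of that sum, CLEC10A and FCER1A stayed at or under 0.277 FPKM, and CLEC9A, XCR1 and CD1C are not listed. In bulk RNA a change in the number of cells that express a gene and a change in the RNA per cell cannot be told apart.

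The promoters of the 3 genes that carry CCAAT, the core of the Y box bound by NF-Y, and that passed the filter are shown because class II genes and CD74 are known to share this element. The sequences are those of RefSeq on GRCh38.p14, from 150 bases before the start of the gene to the last base before it. Capitals mark CCAAT or, where it lies on the opposite strand, ATTGG.
CD74, minus strand, chr5:150412911-150413060: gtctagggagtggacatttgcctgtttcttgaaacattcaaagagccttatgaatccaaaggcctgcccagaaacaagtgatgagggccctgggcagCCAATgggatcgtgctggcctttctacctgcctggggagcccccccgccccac
HLA-DQB1, minus strand, chr6:32666658-32666807: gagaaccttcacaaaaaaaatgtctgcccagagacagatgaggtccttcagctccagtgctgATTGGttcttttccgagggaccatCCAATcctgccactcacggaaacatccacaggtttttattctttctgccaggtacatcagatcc
HLA-DMA, minus strand, chr6:32953098-32953247: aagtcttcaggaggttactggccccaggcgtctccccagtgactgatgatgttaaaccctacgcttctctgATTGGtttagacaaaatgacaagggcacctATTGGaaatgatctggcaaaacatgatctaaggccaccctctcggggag
Promoters of 300 bases (250 before and 50 after the start) were found for 7 of the 9 genes, those of HLA-DRA and CIITA being unmatched. Of these 7 genes 6 held CCAAT on either strand, the exception being HLA-DPA1, and 34.6% of the 35116 RefSeq promoters held it. In CD74 the CCAAT lies from -53 to -49, counted from the first base of the gene at +1. In HLA-DQB1 the sites lie from -88 to -84 and from -64 to -60, and in HLA-DMA from -79 to -75 and from -49 to -45. TGACG, the core of the CREB1 site in the X box, was found in HLA-DQB1, HLA-DMB, HLA-DPA1 and HLA-DPB1 and in 24.6% of all promoters. The interferon-stimulated response element bound by interferon regulatory factors (3.57% of all promoters) and TGATGNAA, the composite site of C/EBP and ATF factors (3.62%), were found in none of the 7 on either strand. These are matches of letters within these windows.

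CD74 was the one highly expressed gene among those of the set with a value. It lies on chr5:150401639-150412910 of GRCh38.p14. CD74 had 84.7 and 91.0 FPKM in sh-NC and 184 and 179 FPKM in sh-CEBPG#3. Both knockdown libraries lay above both controls, with means of 87.8 ± 4.44 and 181 ± 3.41 FPKM (SD, n = 2 each), a ratio of 2.06. CD74 thus rose by a log2 fold change of 1.04 (standard error 0.07, adjusted p = 3.55e-06, limma), a difference larger than the spread between libraries. All fold changes are on the log2(FPKM + 1) scale and understate the change of genes at low values. In sh-NC cells the level of CD74 was above that of 96.7% of the genes with a value, and in sh-CEBPG#3 cells above that of 98.5%.

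The table holds 3 transcripts of CD74. NM_004355, the common form, had 81.5 and 85.5 FPKM in sh-NC and 168 and 163 FPKM in sh-CEBPG#3. NM_001025159, the long form with the added thyroglobulin-like domain, had 2.68 and 5.43 FPKM in sh-NC and 14.9 and 14.5 FPKM in sh-CEBPG#3. Its share of the gene's level was 3.16% and 5.97% in the sh-NC libraries and 8.13% in each sh-CEBPG#3 library, so the shares did not overlap but differed between the controls as well. NM_001025158 stayed at or under 0.871 FPKM. How fragments common to these transcripts were divided between them is not given in the sources used here, and the shares were not tested.

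The antigen-presenting chains of the set that have a value were low in all libraries. HLA-DRA, the alpha chain of HLA-DR (chr6:32439887-32445046), had 0.309 and 0.270 FPKM in sh-NC and 0.331 and 0.577 FPKM in sh-CEBPG#3. The groups did not overlap, but the sh-CEBPG#3 libraries differed from each other by more than the lower of them differed from the controls. The mean of HLA-DRA was 0.290 ± 0.0277 FPKM in sh-NC and 0.454 ± 0.174 FPKM in sh-CEBPG#3 (SD, n = 2 each), under the minimum mean of 0.5 FPKM for a test. With no filter its log2 fold change was 0.17 (adjusted p = 0.271, limma). HLA-DRB1, the beta chain of HLA-DR, is listed with 1 transcript, NM_001243965, that has no value in any library.

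HLA-DPA1 and HLA-DPB1, the chains of HLA-DP, were close to 0. HLA-DPA1 had 0.0137 and 0.00365 FPKM in sh-NC and 0.0671 and 0.0868 FPKM in sh-CEBPG#3. HLA-DPB1 had 0.0140 and 0.0102 FPKM in sh-NC, 0.0144 FPKM in sh-CEBPG#3 replicate 1 and is listed at 0 in replicate 2. The HLA-DPA1 groups did not overlap and those of HLA-DPB1 did, and neither gene was tested. With no filter limma gave an adjusted p of 0.125 for HLA-DPA1 and of 0.909 for HLA-DPB1.

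HLA-DQB1, the beta chain of HLA-DQ (chr6:32659467-32666657), was the only antigen-presenting chain of the set that passed the filter, and it rose. HLA-DQB1 had 0.967 and 1.00 FPKM in sh-NC and 3.51 and 2.70 FPKM in sh-CEBPG#3. Its group means were 0.985 ± 0.0256 and 3.1 ± 0.577 FPKM (SD, n = 2 each), a ratio of 3.15, and both knockdown libraries lay above both controls. HLA-DQB1 rose by a log2 fold change of 1.04 (standard error 0.13, adjusted p = 0.000171, limma), and with a pseudocount of 0.01 it was 1.63, over 1.5 times as large. Its partner HLA-DQA1, the alpha chain of HLA-DQ, had 0.0767 and 0.0455 FPKM in sh-NC and 0.185 and 0.266 FPKM in sh-CEBPG#3, also without overlap, and was too low to be tested. The FPKM of HLA-DQB1 exceeded those of HLA-DQA1 by a factor of 10.1 to 22.1 in the 4 libraries. Class II genes differ strongly between haplotypes and resemble each other, and how reads with several placements were counted is not given in the sources used here, so the levels of the HLA genes are uncertain on this account.

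The chains of HLA-DM, which loads peptides in the endosome, were also low. HLA-DMA (chr6:32948618-32953097) had 0.776 and 0.985 FPKM in sh-NC and 1.31 and 1.4 FPKM in sh-CEBPG#3. The groups did not overlap, with means of 0.880 ± 0.147 and 1.35 ± 0.0611 FPKM (SD, n = 2 each). The log2 fold change of 0.33 (standard error 0.13, 95% interval 0.04 to 0.62) did not pass the threshold after adjustment (adjusted p = 0.0674, limma), but it did when limma was run without a mean-variance trend (adjusted p = 0.0283). HLA-DMB had 0.0661 and 0.0588 FPKM in sh-NC and 0.124 and 0.164 FPKM in sh-CEBPG#3, again without overlap and too low to be tested. HLA-DMA stood above HLA-DMB by a factor of 8.54 to 16.7 in the 4 libraries.

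CIITA, the transactivator (chr16:10866206-10943021), did not follow CD74 and HLA-DQB1. It had 1.00 and 0.893 FPKM in sh-NC and 1.10 and 0.791 FPKM in sh-CEBPG#3. The sh-CEBPG#3 libraries lay on either side of the controls, and the means were 0.949 ± 0.0791 and 0.943 ± 0.215 FPKM (SD, n = 2 each). The log2 fold change was -0.01 with a 95% interval from -0.32 to 0.30 (adjusted p = 0.969, limma), an interval that does not contain the estimate of HLA-DQB1. The log2(FPKM + 1) scale understates changes at the level of CIITA, which in sh-NC is near that of HLA-DQB1 and far under that of CD74. The interval of CIITA can therefore not be set against the estimate of CD74. With a pseudocount of 0.01 the log2 fold change of CIITA was -0.02 (adjusted p = 0.955, limma). The difference between CIITA and CD74 or HLA-DQB1 was not itself tested. Of its 3 transcripts, NM_001286402 had 0.754 and 0.404 FPKM in sh-NC and 1.06 and 0.676 FPKM in sh-CEBPG#3, NM_000246 had 0.410 FPKM in sh-NC replicate 2 and at most 0.0374 FPKM elsewhere, and NM_001286403 ranged from 0 to 0.251 FPKM. With NM_001286402 alone the log2 fold change of CIITA was 0.24 (adjusted p = 0.388, limma).

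Of the 8 genes with a value, 6 had both knockdown libraries above both controls (HLA-DRA, HLA-DPA1, HLA-DQB1, HLA-DMA, HLA-DMB and CD74), while 29.5% of all genes with a value were. Of the 4 genes tested, 2 rose at an adjusted p under 0.05 in limma (CD74 and HLA-DQB1) and 0 fell (2 and 0 in the fit with the replicate block, 3 and 0 without a trend). Of all genes tested, 18.5% rose and 23.8% fell by this criterion. Both also passed the threshold of the study, an unadjusted p under 0.05 with a log2 fold change above 1, which 2.36% of all genes tested passed as higher. Here the threshold was applied to limma on log2(FPKM + 1), whereas the study used DESeq2, so the 2.36% is not a share of the study's calls. CD74 and HLA-DQB1 lay close to the fold-change limit on the log2(FPKM + 1) scale. CD74 was under it with the most abundant transcript (0.98) and without sh-NC replicate 1 (0.985), and HLA-DQB1 without sh-CEBPG#3 replicate 1 (0.90). For HLA-DQB1 this scale understates the change: its ratio of means was 3.15, and with a pseudocount of 0.01 its log2 fold change was 1.63. By log2 fold change HLA-DQB1 ranked 259 and CD74 267 of 12142, counted from the largest increase, with HLA-DMA at 1881 and CIITA at 5588. The 4 genes were those that reached a mean of 0.5 FPKM, so these counts do not describe the whole set.

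In order of their level in sh-NC cells the genes were CD74, HLA-DQB1, CIITA, HLA-DMA, HLA-DRA, HLA-DMB, HLA-DPB1 and HLA-DPA1. The ranges of HLA-DQB1, CIITA and HLA-DMA overlapped in sh-NC cells, as did those of HLA-DPB1 and HLA-DPA1. In sh-CEBPG#3 cells the order was CD74, HLA-DQB1, HLA-DMA, CIITA, HLA-DRA, HLA-DMB, HLA-DPA1 and HLA-DPB1, and no neighbours overlapped. The FPKM of HLA-DRA, HLA-DPA1, HLA-DPB1 and HLA-DQB1 together came to 1.30 and 1.29 in sh-NC and 3.92 and 3.36 in sh-CEBPG#3. CD74 stood 64.9 and 70.7 times above this sum in the sh-NC libraries and 46.8 and 53.2 times above it in the sh-CEBPG#3 libraries. The sum lacks HLA-DRB1, which has no value, and the class II chains HLA-DQA1 and HLA-DRB3, which are outside the set. HLA-DRB3 reached 1.55 FPKM in sh-CEBPG#3 replicate 1, so the ratios to all class II chains would be lower. Against HLA-DRA alone CD74 was 274 and 337 times as high in sh-NC and 555 and 310 times as high in sh-CEBPG#3, where the groups overlapped. Against CIITA it was 84.3 and 102 times as high in sh-NC and 168 and 226 times as high in sh-CEBPG#3, without overlap. These ratios were not tested.

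The other genes of the pathway were taken from 6 lists with 60 genes, of which 47 were tested. At an adjusted p under 0.05 in limma, 21 of the 47 rose and 8 fell, beside 18.5% higher and 23.8% lower over all genes tested, and the median log2 fold change of the 47 was 0.24 against -0.04 for all genes. The 21 include HLA-DRB3 and CD40, which reached the minimum mean of 0.5 FPKM only through sh-CEBPG#3, so the filter favoured their rise. The 21 became 14 with the most abundant transcript and without sh-CEBPG#3 replicate 1. Of the 11 other class II genes on the list, 3 are listed and 2 were tested. HLA-DRB3, a further beta chain of HLA-DR, had 0.327 and 0.188 FPKM in sh-NC and 1.55 and 0.594 FPKM in sh-CEBPG#3 (log2 fold change 0.68, standard error 0.21, adjusted p = 0.0231, limma). With a mean of 0.257 FPKM in sh-NC, it was tested only because of its level in sh-CEBPG#3. The sh-CEBPG#3 libraries differed more than 2 fold, and without sh-CEBPG#3 replicate 1 the log2 fold change was 0.34 (adjusted p = 0.174, limma), so that call rested on 1 library. It was also lost with no filter (adjusted p = 0.106, limma), quantile normalization (0.0599), equal totals (0.0575) and the most abundant transcript (0.115). HLA-DRB3 has 1 transcript, so the last setting left its values unchanged and altered only the fit over all genes. HLA-DOB, a chain of the HLA-DM inhibitor HLA-DO, had 1.32 and 1.37 FPKM in sh-NC and 1.89 and 1.91 FPKM in sh-CEBPG#3, which did not pass (0.31, adjusted p = 0.0578, limma) but did with equal totals (0.0481), with quantile normalization (0.0376) and without a trend (0.0236).

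Several of the factors that recruit CIITA to class II promoters, or act with it there, fell. All of them but KAT2B were above CIITA in every library. Of the 10 genes of this list, all tested, 5 fell, 1 rose and 4 did not pass, with a median log2 fold change of -0.26. Over all genes tested 23.8% fell and 18.5% rose. RFX5, the DNA-binding subunit of the RFX complex, fell from 25.1 ± 2.29 to 18.5 ± 0.997 FPKM (SD, n = 2 each; -0.42, adjusted p = 0.00385, limma), and RFXAP, another subunit, fell from a mean of 3.86 to 2.71 FPKM. NFYA, the subunit of NF-Y that contacts CCAAT, had 8.70 and 9.95 FPKM in sh-NC and 6.48 and 6.64 FPKM in sh-CEBPG#3 (-0.45, adjusted p = 0.00386). NFYB also fell (-0.35), whereas NFYC rose by 0.24 (adjusted p = 0.0344), a call that was lost with no filter (adjusted p = 0.0532), without a trend (0.0597), with the most abundant transcript (0.187), without sh-NC replicate 1 (0.142) and without either sh-CEBPG#3 library (0.121 and 0.126). KAT2B, a histone acetyltransferase, fell from 1.34 and 1.5 FPKM to 0.672 and 0.700 FPKM (-0.52, adjusted p = 0.00867). CREB1 (0.04, 95% interval -0.18 to 0.26), EP300, CREBBP and RFXANK did not pass. RFXAP and NFYB have 1 transcript each, so taking the most abundant transcript left their values unchanged and altered only the fit over all genes. The list's 5 lower genes became 3 with no filter or without sh-CEBPG#3 replicate 2, and 2 (NFYA and KAT2B) when the most abundant transcript alone stood for each gene, so RFX5, RFXAP and NFYB were not called there.

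Of the 12 regulators of CIITA, 7 rose and 1 fell, beside 18.5% higher and 23.8% lower over all genes tested. IFNGR2, a chain of the interferon gamma receptor, rose from 9.57 and 7.43 FPKM to 13.2 and 16.1 FPKM (log2 fold change 0.72, adjusted p = 0.00126, limma). IRF8 (0.44), JAK2 (0.34), SPI1 (0.33) and IRF2 (0.32) rose as well, and PRDM1, a repressor of CIITA, rose by 0.60. IRF1, a factor that acts at the inducible CIITA promoter, had 8.59 and 8.38 FPKM in sh-NC and 9.36 and 9.29 FPKM in sh-CEBPG#3 and did not pass (0.12, 95% interval -0.06 to 0.31, adjusted p = 0.265). SOCS1, an inhibitor of JAK kinases, fell from 16.5 and 16.8 FPKM to 12.1 and 12.2 FPKM (-0.42, adjusted p = 0.0019). JAK1 (-0.07), IFNGR1 (0.09) and USF1 (0.00) did not pass. Without sh-CEBPG#3 replicate 1, and with the most abundant transcripts, 4 of the 7 rises were called.

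Nearly all of the tested genes on the list of endosomal processing, which includes the cathepsin inhibitor CST3, rose. Of 10 tested, 9 rose, 0 fell and 1, CTSH, did not pass (0.04, adjusted p = 0.813, limma), with a median log2 fold change of 0.69. Over all genes tested 18.5% rose and 23.8% fell. The 9 became 7 with no filter, with the most abundant transcript, without sh-NC replicate 1 and without either sh-CEBPG#3 library. IFI30, a thiol reductase that opens disulfide bonds of antigens, had 22.5 and 21.0 FPKM in sh-NC and 86.5 and 83.5 FPKM in sh-CEBPG#3 (1.92, adjusted p = 6.84e-08, limma). CTSD, an aspartic protease, rose from 38.5 and 44.3 FPKM to 119 and 108 FPKM (1.44, adjusted p = 1.49e-06). CTSS, the cathepsin that makes the last cut in CD74 in antigen-presenting cells, rose from 25.2 and 26.9 FPKM to 42.0 and 39.2 FPKM (0.62, adjusted p = 0.000178). CTSZ (1.10), CTSB (1.06), CST3, a cathepsin inhibitor (0.76), CTSC (0.53) and CTSL (0.31) rose too. SPPL2A, which cleaves the membrane stub of CD74, rose by 0.25 (adjusted p = 0.039), a call that was lost with no filter (adjusted p = 0.0717), without a trend (0.0608), with the most abundant transcript (0.104), without sh-NC replicate 1 (0.101) and without either sh-CEBPG#3 library (0.224 and 0.0512). SPPL2A has 1 transcript, so with the most abundant transcript its values were unchanged and only the fit over all genes differed. LGMN, an endosomal protease, stayed at or under 0.108 FPKM and was not tested, and CTSV is not listed.

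Of the 8 tested genes of surface turnover and CD74 partners, 1 rose and 2 fell, which is near the shares of 18.5% and 23.8% over all genes. CD83, which protects surface class II from ubiquitination, rose from 6.09 and 5.96 FPKM to 26.0 and 24.5 FPKM (1.90, standard error 0.08, adjusted p = 1.47e-07, limma). MARCHF1, the ubiquitin ligase that removes class II from the surface, fell from 2.48 and 2.28 FPKM to 1.68 and 1.41 FPKM (-0.41, adjusted p = 0.0183), a call lost with no filter (adjusted p = 0.0528), with the most abundant transcript (0.0965), without sh-NC replicate 1 (0.0718) and without sh-CEBPG#3 replicate 2 (0.0842). MIF, the cytokine that binds CD74, had 304 and 297 FPKM in sh-NC and 323 and 322 FPKM in sh-CEBPG#3 and did not pass (0.10, adjusted p = 0.236). CXCR4, a co-receptor of CD74, fell by 0.32 on the log2 scale (adjusted p = 0.00579, and 0.0674 without sh-CEBPG#3 replicate 2). CD44 (-0.09), CXCR2 (0.29) and MARCHF8 (-0.00) did not pass, though CXCR2 did without sh-NC replicate 2 (0.47, adjusted p = 0.0122).

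Of the 5 tested genes of costimulation and adhesion, 2 rose and 0 fell, beside 18.5% higher and 23.8% lower over all genes tested. CD40, the receptor for T cell help, had 0.151 FPKM in sh-NC replicate 1, is listed at 0 in replicate 2, and had 2.18 FPKM in both sh-CEBPG#3 libraries (log2 fold change 1.57, standard error 0.14, adjusted p = 1.74e-05, limma). Its mean in sh-NC was 0.0755 FPKM, so CD40 reached the minimum mean of 0.5 FPKM only through sh-CEBPG#3. The filter thus favoured its rise, which limits this call and the count of 2. ICAM1, the adhesion ligand of LFA-1, rose from 9.23 and 10.2 FPKM to 16.5 and 16.0 FPKM (0.69, adjusted p = 0.000171). CD86, the ligand of CD28, had 1.08 and 0.935 FPKM in sh-NC and 1.09 and 1.26 FPKM in sh-CEBPG#3 and did not pass (0.11, adjusted p = 0.508). CD58 (0.30) and ICOSLG (0.10) did not pass either, and CD80 was too low to be tested. Of the 8 myeloid markers 4 rose and 3 fell, beside the same shares of 18.5% and 23.8%. CSF1R, the receptor for M-CSF, was higher (0.80, adjusted p = 8.5e-05, limma). MEIS1, a homeobox gene of leukemic precursors, was lower (-0.87, adjusted p = 8.31e-05, limma). Of the 4 tested dendritic cell markers CD209 (1.67) and CCR7 (0.76) rose, and ZBTB46 (0.34, adjusted p = 0.0707) and BATF3 (-0.04) did not pass. Their part in the changes of CD74 and HLA-DQB1 was not tested.

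The genes whose 4 centred log2 values lay nearest to those of CD74 were TBC1D2 (Euclidean distance 0.026), TMSB4X (0.037), ELANE (0.048), SAMHD1 (0.050) and HHLA2 (0.053), measured over the 4 libraries among 12142 genes. TMSB4X, an actin-binding peptide, had 1738 and 1877 FPKM in sh-NC and 3642 and 3620 FPKM in sh-CEBPG#3. ELANE, the elastase of primary granules, had 709 and 780 FPKM in sh-NC and 1581 and 1480 FPKM in sh-CEBPG#3. SAMHD1, a nucleotide hydrolase with antiviral activity, had 40.7 and 44.2 FPKM in sh-NC and 88.5 and 83.3 FPKM in sh-CEBPG#3. None of these is a class II gene. With 4 libraries in 2 groups any gene with a like fold change on the log2(FPKM + 1) scale can stand near CD74. HHLA2 did so at low values, with means of 0.110 FPKM in sh-NC and 1.31 FPKM in sh-CEBPG#3. It reached the minimum mean of 0.5 FPKM only through sh-CEBPG#3. Its ratio of means was 11.9, against 2.06 for CD74.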

How the data were processed

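RNA was extracted with Trizol from MV4-11 cells, and libraries were made with a TruSeq kit. After read filtering and mapping with HISAT, the authors deposited 1 FPKM value per RefSeq transcript and library (HISAT2 2.0.5 and hg38 in the submitters' processing notes). The program that computed the FPKM values and the annotation release are not given in the sources used here. Of 28780 transcripts 199 had no value, and no other row was at 0 in all 4 libraries. Whether transcripts at 0 throughout were left out is not given in the sources used here. Whether a gene that is not listed was at 0 can therefore not be told. FPKM totals were 364353 to 389766 per library. Depth is unknown, as whole-read steps were not seen among low values (561 genes under 0.06 FPKM in sh-NC, at most 0.357% with the same ratio), and no detection floor is given.

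FPKM were summed by gene symbol, and genes averaging 0.5 FPKM or more (12142) were compared as log2(FPKM + 1) with limma 3.58.1 (trend, no block) in R 4.3.3, with Benjamini-Hochberg adjustment, after a check on simulated data. The study's own test needs read counts and was not run. The genes described are the 9 genes of the set, CEBPG, the 5 genes nearest to CD74 and, per list, the 2 highest and the 2 lowest; further list and marker genes were named after their values were seen. The 9 genes and the lists were chosen with earlier results of these data known. Motifs were searched with Python 3.11.15 in RefSeq promoters of GRCh38.p14. Other settings tried were no filter or a minimum mean of 1 FPKM, smaller pseudocounts (0.1 and 0.01), equal totals or quantile normalization, the most abundant transcript per gene, the replicate block, no trend, and leaving out each library. Some list and marker genes and 1 motif are not reported here singly but remain in the counts and sums of their lists.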

Additional observations from a re-analysis of the deposited data

How the results depend on the processing

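CD74 and HLA-DQB1 kept their direction and their adjusted p under 0.05 in limma in all 13 alternatives, with log2 fold changes from 0.98 to 1.09 for CD74 and from 0.90 to 1.63 for HLA-DQB1. CEBPG stayed between -0.87 and -0.70. The log2 fold change of CIITA (-0.01) turned to 0.24 with the most abundant transcript and lay between -0.12 and 0.11 when a library was omitted, and CIITA was not tested at a mean of at least 1 FPKM. With a library left out CREB1 ranged from -0.032 to 0.10, CTSH from -0.049 to 0.12 and ICOSLG from -0.020 to 0.22, none of which passed 0.05. The genes past the study's threshold, applied to limma, were 286 higher and 128 lower, 490 and 337 with a pseudocount of 0.1, and 509 and 373 with 0.01. At an adjusted p under 0.05 in limma 2244 rose and 2884 fell, 1329 and 1535 with the most abundant transcript, and 1539 to 2405 and 1951 to 3046 with a library left out. Of the list genes 21 rose and 8 fell, with 16 and 5 with no filter, 14 and 4 with the most abundant transcript, and 14 to 23 and 4 to 8 with a library left out (14 higher without sh-CEBPG#3 replicate 1, 4 lower without sh-CEBPG#3 replicate 2). For these shifts the cause was not tested. Omitting a library left its group with 1, which limma assumes to vary like the other group. Same-numbered libraries deviated with a correlation of 0.061 across genes and share only a number. With the replicate block 289 genes passed the study's threshold as higher and 130 as lower, CD74 and HLA-DQB1 kept 1.04, and NFYC (adjusted p = 0.0958) and SPPL2A (adjusted p = 0.0842) no longer passed in limma. Without counts the precision of genes under 1 FPKM, which most class II chains are, could not be judged.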
